A study of Mus musculus with 6 samples.

Results

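PD-L1 and the costimulatory or checkpoint molecules described here are 10 genes, taken as the rows of the deposited count table whose symbol is Cd274, Pdcd1lg2, Cd80, Cd86, Cd40, Icosl, Vsir, Havcr2, Sirpa or Cd47. They are 10 of 21847 genes in the table, and all 10 passed the filter on low counts that left 14605 genes to test. The RNA came from mouse spleen cells, labelled as sorted macrophages, after 3 days of culture with mesenchymal stromal cells (MSCs) of human cord tissue. They had been labelled with Qtracker, which is made of fluorescent quantum dots, and plated on fibronectin before splenocytes depleted of T cells were added. The Qtracker positive group (3 libraries) holds sorted cells that carried the label and are recorded as having engulfed MSCs. The Qtracker negative group (3 libraries) holds sorted cells that did not carry it and are recorded as not having engulfed them. Both groups had been cultured with MSCs, and no culture without MSCs was compared. The libraries are numbered 1 to 3 in each group, and the series calls them paired biological replicates. All cells were gated as CD11b positive, and the labels name both Ly6G and Ly6C as the marker that the gate excluded, without strain or age of the mice. Whether each replicate was a different animal is not stated, and the p-values cover only library-to-library spread, part of which may be technical.

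The products of these genes sit on antigen-presenting cells and tune T cells or phagocytes. PD-L1 (Cd274) and PD-L2 (Pdcd1lg2) bind the inhibitory receptor PD-1 on T cells. CD80 and CD86 bind the activating receptor CD28 and the inhibitory receptor CTLA-4, ICOSL binds ICOS, and CD40 receives the signal of CD40L from T cells. VISTA (Vsir) and TIM-3 (Havcr2) are inhibitory molecules that myeloid cells themselves carry. SIRP alpha (Sirpa) is the receptor on macrophages for CD47, a surface protein that signals to phagocytes not to engulf the cell that bears it.

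Cd274 and Pdcd1lg2 are direct neighbours on mouse chromosome 19 and differed in opposite directions, so the sequence before each start is shown, with that of Havcr2, the gene with the largest difference. In the mm10 assembly Cd274 lies at chr19:29367455-29388095 and Pdcd1lg2 at chr19:29410919-29471161, both on the plus strand, with 22823 bases and no annotated gene between them (GENCODE M21). Each line gives the 250 bases before the start in RefSeq (GRCm38.p6, plus strand), 5′ to 3′, and capitals mark a motif match.
Cd274 chr19:29367188-29367437: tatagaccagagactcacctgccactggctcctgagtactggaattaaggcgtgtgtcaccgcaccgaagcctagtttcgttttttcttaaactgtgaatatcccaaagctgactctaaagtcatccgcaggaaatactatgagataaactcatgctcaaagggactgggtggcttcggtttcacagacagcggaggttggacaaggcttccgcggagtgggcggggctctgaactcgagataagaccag
Pdcd1lg2 chr19:29410669-29410918: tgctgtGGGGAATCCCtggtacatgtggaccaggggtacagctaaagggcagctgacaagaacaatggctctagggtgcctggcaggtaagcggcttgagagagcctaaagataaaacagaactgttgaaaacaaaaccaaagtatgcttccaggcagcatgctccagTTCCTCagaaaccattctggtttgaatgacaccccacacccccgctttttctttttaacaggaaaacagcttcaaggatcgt
Havcr2 chr11:46454681-46454930: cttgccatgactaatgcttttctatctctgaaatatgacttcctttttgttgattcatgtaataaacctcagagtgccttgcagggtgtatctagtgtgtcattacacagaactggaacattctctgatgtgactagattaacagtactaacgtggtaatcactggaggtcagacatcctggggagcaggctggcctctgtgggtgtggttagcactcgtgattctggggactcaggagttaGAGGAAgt

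Motifs of 4 kinds of factor known from myeloid and interferon responses were searched on both strands. They were the core of the interferon-stimulated response element (GAAA 2 times with any 2 bases between), the STAT site TTCNNNGAA, the NF-kappaB motif and the PU.1 core GAGGAA. The Pdcd1lg2 window holds an NF-kappaB match from 244 to 235 and a PU.1 core match from 82 to 77 bases before the start, which do not overlap. The Havcr2 window holds a PU.1 core match from 8 to 3 bases before the start, and the Cd274 window holds the letters of none of these motifs. Among 32851 promoter windows of the same length, 7.25% hold the NF-kappaB motif, 23.25% the PU.1 core, 7.02% the STAT site and 2.98% the interferon element core. Of the 10 genes, 7 matched the RefSeq promoter table, and the other match in their windows was an NF-kappaB match from 111 to 102 bases before the start of Icosl.

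Library totals were 42490705 to 55506993 estimated counts in the Qtracker positive libraries and 33943090 to 44061187 in the Qtracker negative libraries. Replicates 2 and 3 were close to each other, and replicate 1 stood apart in both groups. Over 4121 genes of middle abundance, the median absolute log2 difference between replicates 2 and 3 was 0.0855 in the positive and 0.0549 in the negative group. Between replicate 1 and the others it was 0.286 and 0.296 in the positive group, and 0.454 and 0.449 in the negative group. Itgam, which encodes the CD11b of the gate, stood at 2716, 1820 and 1836 CPM (the count set against the scaled total of its library) in Qtracker positive replicates 1, 2 and 3, against 259.6, 2269 and 2211 CPM in Qtracker negative replicates 1, 2 and 3. The summed level of 12 macrophage markers was 29242, 35308 and 37772 CPM in the positive libraries, against 1234, 14753 and 14605.5 CPM in the negative libraries. The largest part of each sum was Lyz2, which was not called. It stood at 19350, 24560 and 27080 CPM in the positive libraries, against 712, 11500 and 11430 CPM in the negative libraries. C1qa stood at 1064, 1673 and 1558 CPM in the positive libraries, against 27.95, 124 and 123 CPM in the negative libraries. Lyz2 and C1qa were named after their values were seen. Of 11 tested macrophage markers 7 rose, among them Adgre1, which encodes F4/80 (2.53 ± 0.21 on the log2 scale, adjusted p = 0.00977, edgeR quasi-likelihood test). Only Cd163 was at 0 in a library. Qtracker negative replicate 1 was thus far below every other library for the gated gene and for the sum of the macrophage markers. Adgre1 stood at 90.85 CPM there, against 196 and 190 CPM in Qtracker negative replicates 2 and 3. Spic (2.18 against 1.46 and 1.48 CPM) and Cd163 (0.206 against 0.067 and 0 CPM) were instead highest of the negative group in replicate 1. Both were named after their values were seen.

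**Figure D1:**
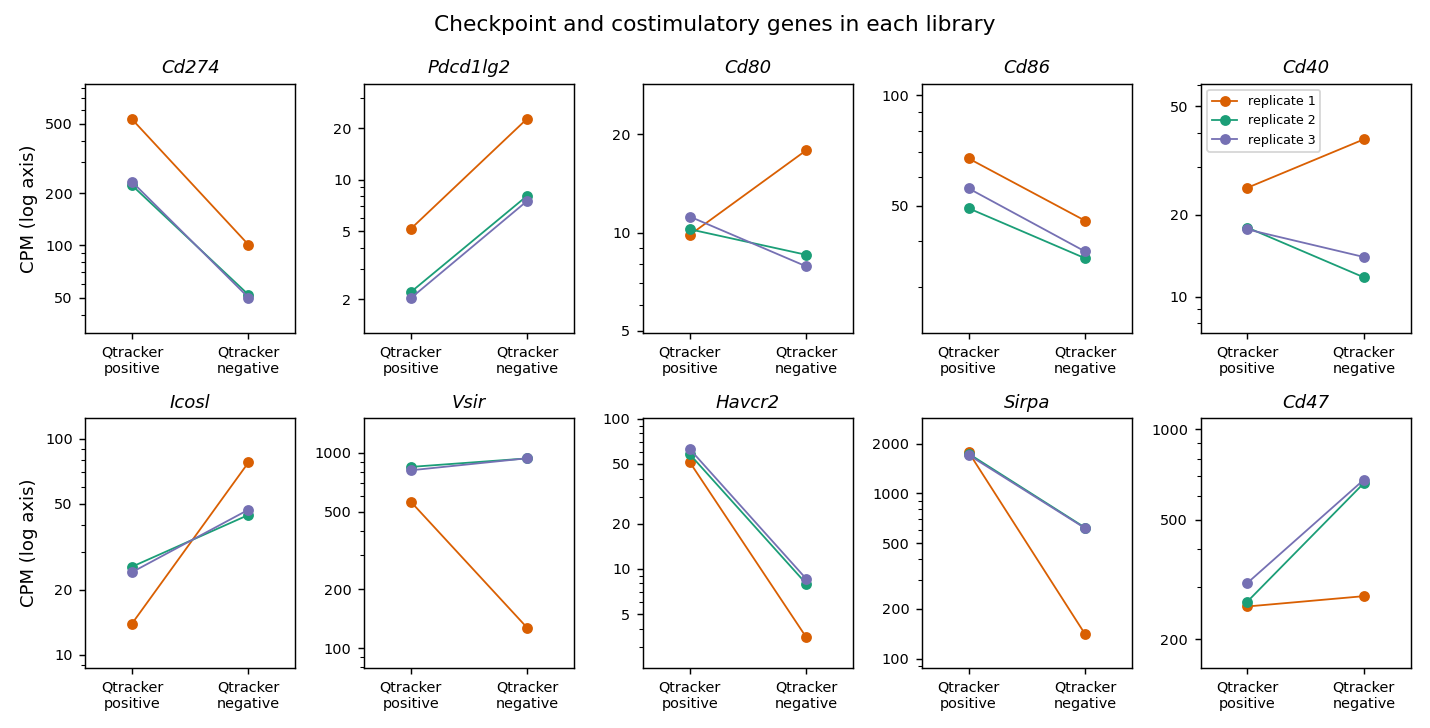
CPM (log axis) of the 10 genes in each library, with Qtracker positive libraries on the left, Qtracker negative libraries on the right and a line joining each numbered pair. The lines of Cd274, Pdcd1lg2, Cd86, Icosl, Havcr2, Sirpa and Cd47 run the same way in all 3 pairs. For Cd80, Cd40 and Vsir pair 1 runs against the others.

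PD-L1 RNA was higher and PD-L2 RNA lower in the Qtracker positive libraries. Cd274 stood at 532 (532.0), 222 and 232 CPM in Qtracker positive replicates 1, 2 and 3, against 101, 52.1 and 50.2 CPM in Qtracker negative replicates 1, 2 and 3. The groups did not overlap, and replicate 1 was the highest library of both groups. Cd274 rose by 2.23 ± 0.14 on the log2 scale (standard error), which is 4.70-fold (adjusted p = 0.00709, edgeR quasi-likelihood test with the replicate number as a block and Benjamini-Hochberg adjustment over all 14605 genes). The log2 difference was 2.40, 2.09 and 2.21 in pairs 1, 2 and 3. In such bulk samples, a change in the share of cells that express a gene and a change in RNA per cell cannot be told apart.

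Pdcd1lg2 stood at 5.155, 2.20 and 2.03 CPM in Qtracker positive replicates 1, 2 and 3, against 22.8, 8.06 and 7.52 CPM in Qtracker negative replicates 1, 2 and 3. All positive libraries lay below all negative libraries, and replicate 1 was again the highest of its group. Pdcd1lg2 fell by 1.97 ± 0.17 on the log2 scale, or 3.92-fold (adjusted p = 0.009955, edgeR), with log2 differences of -2.13, -1.85 and -1.87 in pairs 1, 2 and 3. These low levels rest on 96 to 195 counts in the positive libraries and 350 to 993 in the negative libraries.

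Within a library, the CPM of Cd274 was 103, 101 and 115 times that of Pdcd1lg2 in Qtracker positive replicates 1, 2 and 3, against 4.44, 6.47 and 6.68 times in Qtracker negative replicates 1, 2 and 3. This ratio does not depend on library scaling. On the log2 scale it averaged 6.73 ± 0.099 in the positive and 2.53 ± 0.33 in the negative libraries (SD, n = 3 each), a difference of 4.20 (two-sided exact permutation p = 0.1, and 0.125 after Benjamini-Hochberg adjustment over 5 ratios). With 3 against 3 libraries, 0.1 is the smallest p this test can give.

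By edgeR, Cd274 missed the threshold without replicate 2 (adjusted p = 0.0586, log2 fold change 2.31) and without replicate 3 (0.0683, 2.24), and so did Pdcd1lg2 (0.0669 at -2.01 and 0.0781 at -2.01). Cd274 shares 511 of its 3622 exon bases with an antisense transcript, AC119228.1, which was not analysed here. Counted on both strands, 14.6% of its transcript stretches of 31 bases also occur in other genes, most often in AC119228.1. The libraries came from a stranded kit, but no source used here says whether strand was used in counting. Reads of Cd274 and that transcript therefore cannot be told apart within the shared bases.

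Of the ligands of CD28 and CTLA-4, Cd86 was higher in the positive libraries by a small margin and Cd80 was not called. Cd86 stood at 67.3, 49.2 and 55.8 CPM in Qtracker positive replicates 1, 2 and 3, against 45.5, 36.0 and 37.5 CPM in Qtracker negative replicates 1, 2 and 3. Every positive library lay above every negative library. Cd86 rose by 0.53 ± 0.10 on the log2 scale, or 1.44-fold (adjusted p = 0.0317, edgeR), with 0.56, 0.45 and 0.57 in pairs 1, 2 and 3. That call depended on scaling. With library totals alone, which moved the median of all tested genes to -0.357, the log2 fold change was 0.18 (adjusted p = 0.309), and with upper quartile factors, which moved it to -0.152, it was 0.39 (0.0666). The call was also lost without replicate 2 (0.23) and without replicate 3 (0.293).

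Cd80 stood at 9.83, 10.2 and 11.2 CPM in Qtracker positive replicates 1, 2 and 3, against 17.9, 8.55 and 7.885 CPM in Qtracker negative replicates 1, 2 and 3. The groups overlapped, with Qtracker negative replicate 1 the highest library and the other negative libraries the lowest. Its log2 fold change was -0.03 ± 0.34 (adjusted p = 0.955, edgeR), made of -0.86, 0.26 and 0.50 in pairs 1, 2 and 3. Without replicate 1 the direction turned, to 0.39 (adjusted p = 0.016). The CPM of Cd80 was 0.146, 0.208 and 0.201 times that of Cd86 in Qtracker positive replicates 1, 2 and 3, against 0.392, 0.238 and 0.210 times in Qtracker negative replicates 1, 2 and 3. The log2 difference of -0.56 (two-sided exact permutation p = 0.1, the smallest possible, 0.125 adjusted) was made of -1.425, -0.19 and -0.065 in pairs 1, 2 and 3, and was -0.13 without replicate 1.

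Cd40 and Icosl are expressed by B cells and dendritic cells as well as macrophages. Cd40 stood at 25.1, 18.0 and 17.7 CPM in Qtracker positive replicates 1, 2 and 3, against 37.8, 11.8 and 14.0 CPM in Qtracker negative replicates 1, 2 and 3. The groups overlapped, with Qtracker negative replicate 1 at the top and the other negative libraries at the bottom. Its log2 fold change was 0.12 ± 0.29 (adjusted p = 0.764, edgeR), from -0.59, 0.60 and 0.34 in pairs 1, 2 and 3. Without replicate 1 it was 0.48 (adjusted p = 0.00498).

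Icosl stood at 13.9, 25.6 and 24.1 CPM in Qtracker positive replicates 1, 2 and 3, against 77.7, 44.4 and 46.95 CPM in Qtracker negative replicates 1, 2 and 3. All positive libraries lay below all negative libraries. The log2 fold change was -1.40 ± 0.42 and missed the threshold (adjusted p = 0.0702, edgeR), with -2.475, -0.80 and -0.96 in pairs 1, 2 and 3. It passed without the replicate block (adjusted p = 0.0174), without replicate 1 (0.000181, at -0.87) and by DESeq2 (0.00386). By edgeR it did not pass without replicate 2 (0.115) or without replicate 3 (0.147).

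The summed markers of B cells and of conventional dendritic cells were lower in the positive library of every pair, as Icosl and Pdcd1lg2 were, while Cd40 and Cd80 were lower in pair 1 alone. The summed level of 10 B cell markers was 241, 316 and 318 CPM in Qtracker positive replicates 1, 2 and 3, against 5998, 2002 and 2099 CPM in Qtracker negative replicates 1, 2 and 3. That of 10 conventional dendritic cell markers was 46.4, 61.9 and 61.0 CPM in the positive libraries, against 663, 224 and 239 CPM in the negative libraries. Qtracker negative replicate 1 was highest for both sums, as it was for Pdcd1lg2, Cd80, Cd40 and Icosl. Of the B cell markers 8 of 10 fell. Of 8 tested dendritic cell markers 5 fell, among them the growth factor receptor Flt3 (-3.50 ± 0.23, adjusted p = 0.00737, edgeR). Clec9a, Batf3 and Cd83 were not called (0.43, 0.39 and -1.265 on the log2 scale). In the negative libraries the largest part of the dendritic cell sum was Ccr7, at 353, 106.5 and 113 CPM. Its level was 14.35, 12.65 and 12.3 CPM in the positive libraries. Next in the negative libraries were Cd83, at 156, 54.5 and 57.9 CPM, and Dpp4, at 85.9, 36.2 and 39.5 CPM. Clec9a averaged 0.484 CPM in the positive and 0.377 CPM in the negative libraries. Xcr1, too low to be tested, averaged 0.157 and 0.103 CPM. Whether the transcripts in this sum came from dendritic cells or from other cells was not tested. The markers other than Flt3 were named after their values were seen. In these lists only Cd209a was at 0 in a library. The 9 markers of plasmacytoid dendritic cells summed to 401, 549 and 555 CPM in the positive libraries, against 675, 365 and 379.5 CPM in the negative libraries, with Klk1 at 0 in a library, 2 of 8 tested higher and 3 lower. Those higher were Bst2 and Cox6a2, and those lower were Siglech, Ly6d and Ccr9, all named after their values were seen. Bst2 stood at 225, 206 and 217 CPM in the positive libraries, against 31.2, 39.6 and 39.3 CPM in the negative libraries. Siglech averaged 0.150 CPM in the positive and 1.28 CPM in the negative libraries. The part of these cells in the levels of Pdcd1lg2, Cd80, Cd40 and Icosl was not tested.

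**Figure D2:**
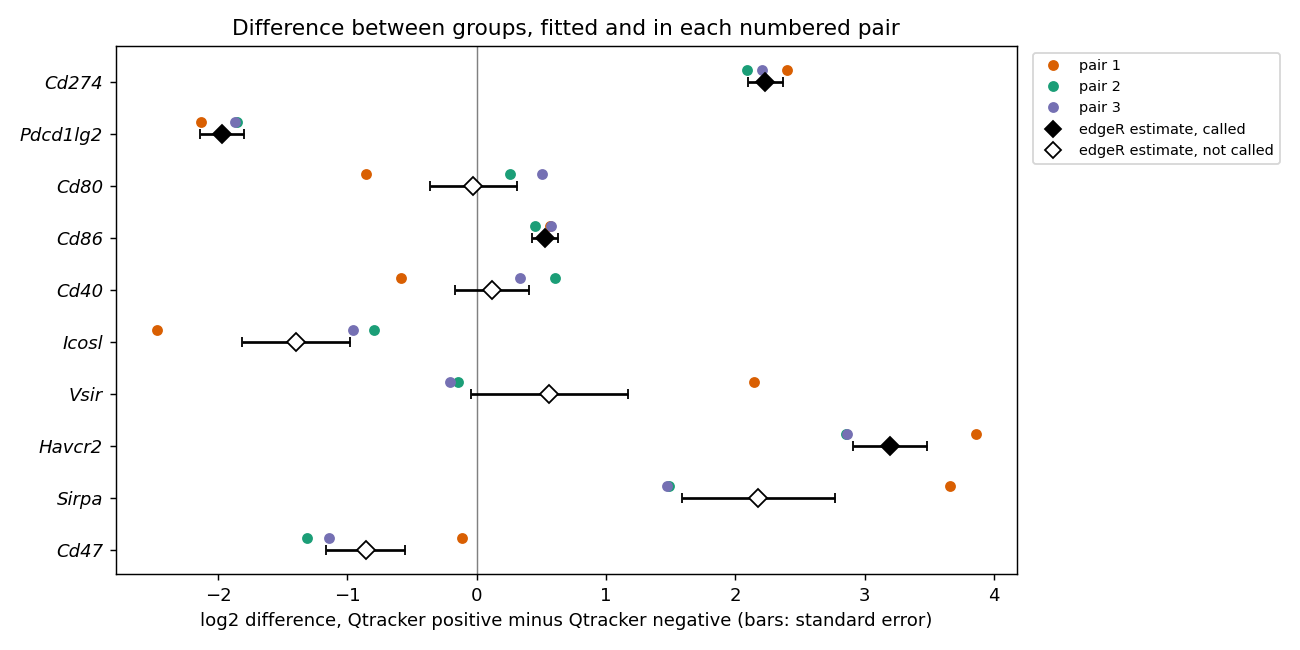
Log2 difference of the 10 genes, Qtracker positive minus Qtracker negative, with the edgeR estimate and its standard error as a diamond and the 3 numbered pairs as dots. The pairs of Cd274 lie within 0.310 of each other and those of Cd86 within 0.1185, while those of Vsir span 2.35 and those of Sirpa 2.19.

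TIM-3 RNA had the largest difference among the 10 genes. Havcr2 stood at 51.5, 58.1 and 62.9 CPM in Qtracker positive replicates 1, 2 and 3, against 3.51, 7.97 and 8.59 CPM in Qtracker negative replicates 1, 2 and 3. The groups did not overlap, and Qtracker negative replicate 1 was the lowest library. Havcr2, at chr11:46454935-46481255 on the plus strand, rose by 3.20 ± 0.29 on the log2 scale, or 9.16-fold (adjusted p = 0.0103, edgeR). Pair 1 gave a log2 difference of 3.86, and pairs 2 and 3 gave 2.86 and 2.865. The call held without replicate 2 (adjusted p = 0.0489) and was lost without replicate 3 (0.0618).

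Vsir, an abundant transcript in 5 of the 6 libraries, was not called. It stood at 562, 846.5 and 813 CPM in Qtracker positive replicates 1, 2 and 3, against 127, 936 and 937 CPM in Qtracker negative replicates 1, 2 and 3. Qtracker negative replicate 1 was the lowest library and the other negative libraries were the highest, so the groups overlapped. The log2 fold change was 0.56 ± 0.61 (adjusted p = 0.503, edgeR), from 2.15, -0.1448 and -0.2046 in pairs 1, 2 and 3. Without replicate 1 the direction turned, to -0.16 (adjusted p = 0.0151). Vsir lies within Cdh23 on the opposite strand, with no shared exon bases.

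Itgam was likewise lowest in Qtracker negative replicate 1, at 259.6 CPM. In a ratio chosen after its values were seen, the CPM of Vsir was 0.207, 0.465 and 0.443 times that of Itgam in Qtracker positive replicates 1, 2 and 3, against 0.489, 0.4125 and 0.424 times in Qtracker negative replicates 1, 2 and 3. These ranges overlapped, and the log2 difference of -0.335 had a two-sided exact permutation p of 0.7, also after adjustment.

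Sirpa was higher in every positive library than in any negative library, and Cd47 was lower in pairs 2 and 3 by more than in pair 1. Sirpa stood at 1777, 1739 and 1709 CPM in Qtracker positive replicates 1, 2 and 3, against 140.6, 619.9 and 615 CPM in Qtracker negative replicates 1, 2 and 3. The positive libraries were close to each other, and Qtracker negative replicate 1 was far below the other negative libraries. The log2 fold change was 2.18 ± 0.59, or 4.52-fold, and missed the threshold (adjusted p = 0.0594, edgeR), with 3.66, 1.49 and 1.47 in pairs 1, 2 and 3. Sirpa passed without the replicate block (adjusted p = 0.036), without replicate 1 (3.24e-06, at 1.49), by DESeq2 (0.0003), by limma-voom (0.0398) and with the authors' normalized counts (0.0434). By edgeR it did not pass without replicate 2 (0.13) or without replicate 3 (0.137). In the fit without replicate 1, 72.9% of tested genes were called. Of its 5103 transcript stretches of 31 bases, 2 also occur in the related Sirpb1 genes.

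Set against Itgam, again after the values were seen, the CPM of Sirpa was 0.654, 0.955 and 0.931 times that of Itgam in Qtracker positive replicates 1, 2 and 3, against 0.542, 0.273 and 0.278 times in Qtracker negative replicates 1, 2 and 3. These ranges did not overlap, and the log2 difference was 1.27 (two-sided exact permutation p = 0.1, the smallest possible, 0.125 adjusted).

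Cd47 stood at 257.5, 267 and 308 CPM in Qtracker positive replicates 1, 2 and 3, against 279, 663 and 681 CPM in Qtracker negative replicates 1, 2 and 3. The groups overlapped, since Qtracker negative replicate 1 lay among the positive libraries. The log2 fold change was -0.86 ± 0.31 (adjusted p = 0.102, edgeR), from -0.11, -1.31 and -1.14 in pairs 1, 2 and 3. It passed without replicate 1 (adjusted p = 1.98e-05, at -1.215), with library totals alone (0.0343) and by DESeq2 (0.0249). By edgeR it did not pass without replicate 2 (0.397) or without replicate 3 (0.383).

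The summed level of 10 neutrophil markers was 1201, 1321 and 1434 CPM in Qtracker positive replicates 1, 2 and 3, against 2420.5, 64601 and 64827 CPM in Qtracker negative replicates 1, 2 and 3. Of these markers 9 fell, and only Ly6g was at 0 in a library. Ly6g stood at 0.026, 0 and 0.38 CPM in the positive libraries, against 1.33, 25.9 and 29.2 CPM in the negative libraries. The exception was Mmp8, named after its values were seen and not called (0.76 on the log2 scale). It stood at 1004, 693.5 and 783 CPM in the positive libraries, against 98.8, 887 and 948 CPM in the negative libraries. Mmp8 was the largest part of the sum in each positive library. Qtracker negative replicate 1 was the lowest of its group for the sums of neutrophil and of macrophage markers, as it was for Vsir, Sirpa, Cd47 and Havcr2. The part of these cells in the levels of the 4 genes was not tested.

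The CPM of Sirpa was 6.90, 6.50 and 5.54 times that of Cd47 in Qtracker positive replicates 1, 2 and 3, against 0.505, 0.935 and 0.904 times in Qtracker negative replicates 1, 2 and 3. The groups did not overlap. The difference of the log2 ratio was 3.06, with 3.77, 2.80 and 2.62 in pairs 1, 2 and 3 (two-sided exact permutation p = 0.1, the smallest possible, 0.125 adjusted).

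In all, 3 of the 10 genes rose (Cd274, Cd86 and Havcr2) and 1 fell (Pdcd1lg2). Over all 14605 genes tested 18.5% rose and 16.3% fell, 34.9% in all, so 4 of 10 genes is close to the background. The groups did not overlap in 6 of the 10 genes and in 59.4% of all tested genes. In 4 of the 10 genes every positive library lay above every negative library, where 30.0% of tested genes did, and in 2 every positive library lay below, where 29.4% did. The median log2 fold change was 0.32 over the 10 genes and -0.01 over all tested genes. Without replicate 1 all 10 genes were called, 6 higher and 4 lower, in a setting in which 72.9% of tested genes were called. Without replicate 2 Havcr2 alone was called, beside 2.1% of tested genes. Without replicate 3 edgeR called 0 genes, with 3 of the 10 genes higher and 2 lower at an unadjusted p under 0.05, as were 4209 genes in all.

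**Figure D3:**
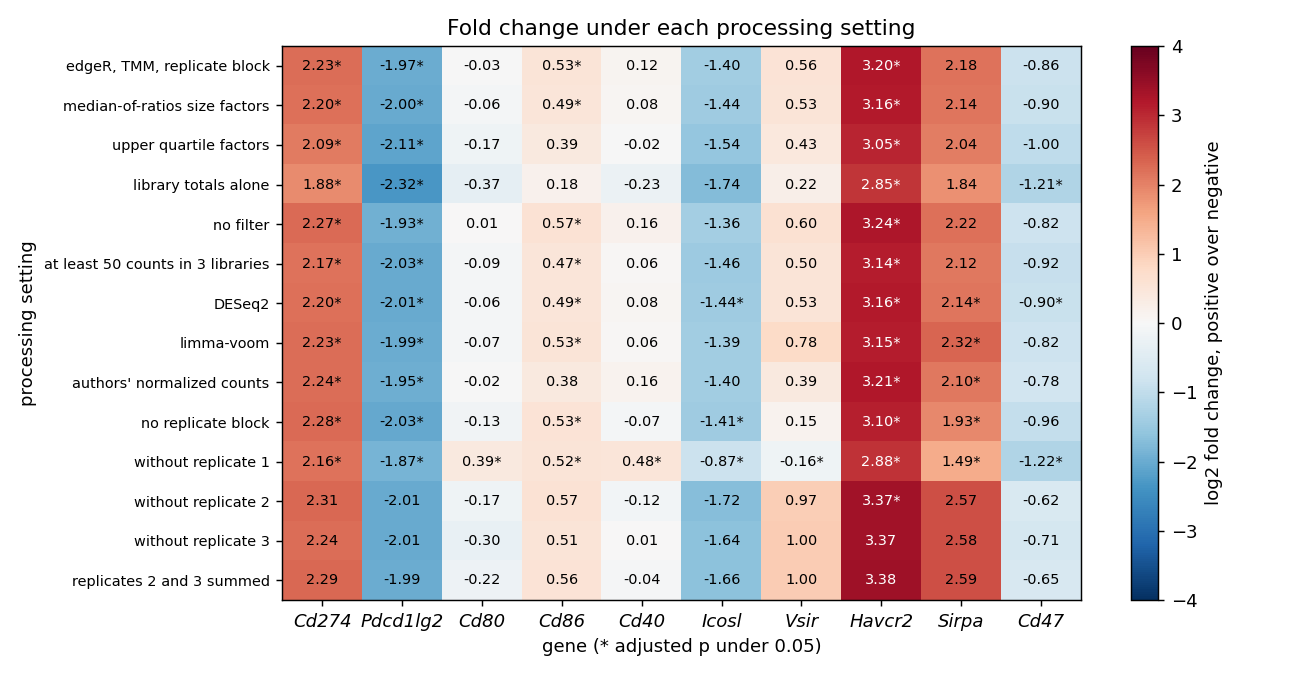
Log2 fold change of the 10 genes under each processing setting, Qtracker positive over Qtracker negative, with an asterisk where the adjusted p was under 0.05. Cd80, Cd40 and Vsir change sign between settings, while Cd274 stays between 2.16 and 2.31 whichever replicate is left out.

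Levels of different genes were compared as CPM per kilobase of exon, which is the scale of every value in this paragraph. In the positive libraries Sirpa was highest, at 355 ± 6.98 (SD, n = 3). It was followed by Vsir at 148 ± 31.1, Cd274 at 90.7 ± 48.6, Cd47 at 44.3 ± 4.3, Havcr2 at 21.1 ± 2.1 and Cd86 at 15.7 ± 2.5. Cd40 at 5.95 ± 1.24, Icosl at 4.59 ± 1.37, Cd80 at 2.82 ± 0.189 and Pdcd1lg2 at 1.59 ± 0.896 were lowest. Among neighbours in this order, the ranges over the 3 libraries overlapped for Vsir and Cd274, for Cd40 and Icosl, and for Icosl and Cd80. In the negative libraries Vsir was highest at 133 ± 93.2, followed by Sirpa at 93.4 ± 56.1, Cd47 at 86.2 ± 36.2, Cd274 at 18.7 ± 7.95 and Icosl at 12.2 ± 4.01. Cd86 at 10.8 ± 1.4, Pdcd1lg2 at 6.52 ± 4.41, Cd40 at 6.23 ± 4.24, Cd80 at 3.09 ± 1.51 and Havcr2 at 2.46 ± 1.02 were lowest. There Cd47 and Cd274 were the only neighbours whose ranges did not overlap.

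**Figure D4:**
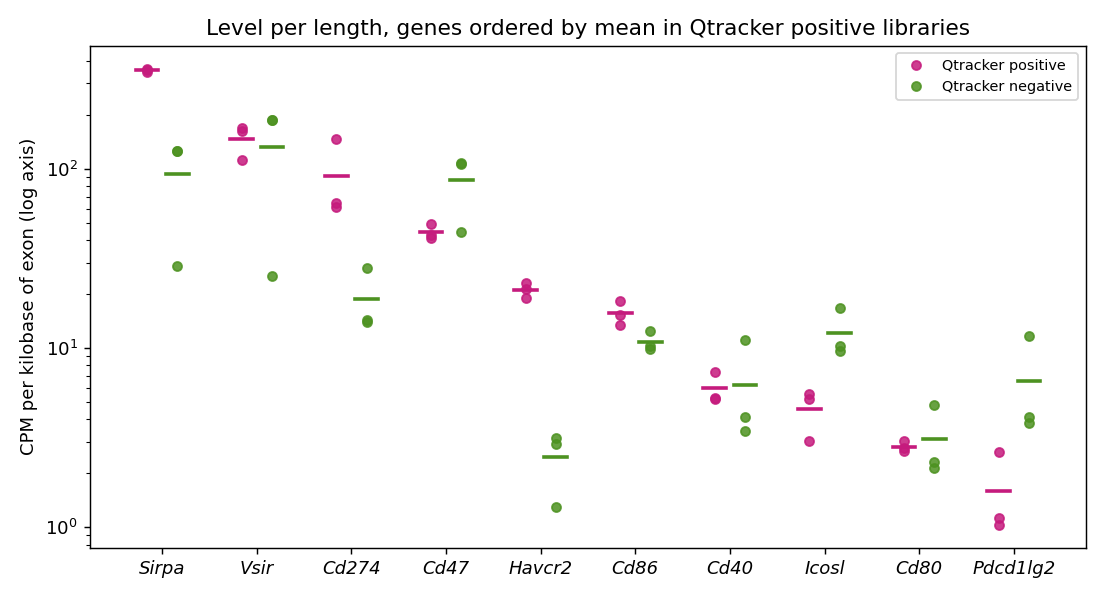
CPM per kilobase of exon (log axis) of the 10 genes in each library, with Qtracker positive libraries to the left of Qtracker negative libraries. Sirpa is highest in the positive libraries at a mean of 355 and Pdcd1lg2 lowest at 1.59.

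Among other ligands of the B7 and TNF families and related surface molecules, 16 of 18 listed genes were in the table. Of these 11 were tested, of which 4 rose and 2 fell (median log2 fold change 0.82). The shares over all 14605 tested genes, for this and each later list, were 18.5% rising and 16.3% falling. Pvr, a ligand of TIGIT and CD226 on T cells, stood at 53.4, 29.6 and 28.6 CPM in Qtracker positive replicates 1, 2 and 3, against 14.1, 7.10 and 8.01 CPM in Qtracker negative replicates 1, 2 and 3. All positive libraries lay above all negative libraries, and Pvr rose by 1.94 ± 0.12 on the log2 scale (adjusted p = 0.00709, edgeR). Cd200, the ligand of an inhibitory receptor on myeloid cells, fell by 1.43 ± 0.17 (adjusted p = 0.0151, and 0.0668 without the replicate block). The others that rose, named after their values were seen, were Tnfsf9, the ligand of 4-1BB (1.82), and the adhesion molecules Cd48 (1.27) and Icam1 (0.82). Tnfsf4, the ligand of OX40 and likewise named after its values were seen, also fell, and had 0, 1 and 3 counts in Qtracker positive replicates 1, 2 and 3, against 134, 60 and 61 counts in Qtracker negative replicates 1, 2 and 3.

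The receptors that T cells carry for such ligands were mostly lower. Of 12 tested, 11 fell and 1 rose, with a median log2 fold change of -3.51. Cd27 fell by 3.185 ± 0.27 (adjusted p = 0.00977, edgeR) and Tnfrsf9, which encodes 4-1BB, by 3.09 ± 0.28 (0.0105). Pdcd1, which encodes PD-1 and was named after its values were seen, averaged 0.375 ± 0.082 CPM in the positive and 6.39 ± 3.425 CPM in the negative libraries (SD, n = 3 each). Btla, likewise named after its values were seen, was the most abundant of those that fell. It stood at 6.29, 10.6 and 11.4 CPM in the positive libraries, against 173, 77.9 and 81.5 CPM in the negative libraries. Cd28, named after its values were seen, was the gene that rose. It stood at 29.55, 84.9 and 99.3 CPM in Qtracker positive replicates 1, 2 and 3, against 7.865, 7.97 and 7.09 CPM in Qtracker negative replicates 1, 2 and 3. The groups did not overlap, and Qtracker positive replicate 1 was the lowest of its group. The rise was 3.06 ± 0.47 on the log2 scale (adjusted p = 0.02155).

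Markers of T cells and NK cells were also mostly lower. The summed level of 10 T cell markers was 15.3, 12.4 and 12.5 CPM in Qtracker positive replicates 1, 2 and 3, against 183, 37.2 and 39.3 CPM in Qtracker negative replicates 1, 2 and 3, with Trac and Lat at 0 in a library. That of 9 NK cell markers was 4.84, 6.62 and 1.50013 CPM in the positive libraries, against 91.1, 18.6 and 16.6 CPM in the negative libraries, with Ncr1, Klrb1c, Prf1, Gzma and Klra8 at 0 in a library. Of the tested markers 9 of 10 for T cells and 6 of 8 for NK cells fell. The part of these cells and of B cells in the receptor levels was not tested.

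Few genes of the interferon gamma route, which is known to induce PD-L1, were called by edgeR with all replicates, where 34.9% of all tested genes were. Of 17 tested, 1 rose, the receptor chain Ifngr2 (0.88 ± 0.18, adjusted p = 0.035, edgeR), and 1 fell, the kinase Jak2 (-1.20 ± 0.12, adjusted p = 0.0112), with a median log2 fold change of -0.21. The Ifngr2 call was lost with library totals alone (0.0542), where 5 genes of the list were lower. Without the replicate block 2 were higher and 3 lower. By DESeq2, which called 48.5% of tested genes, 2 were higher and 4 lower. Without replicate 1, where 72.9% of tested genes were called, 5 were higher and 8 lower. Irf1, a transcription factor of this route, was named after its values were seen and was not called (-0.265 ± 0.12, adjusted p = 0.159).

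Of 12 genes that act on PD-L1 protein, 3 rose and 1 fell (median 0.47). Cmtm4, a membrane protein known to stabilise PD-L1, rose by 1.35 ± 0.13 (adjusted p = 0.0109, edgeR). Stub1, which encodes a ubiquitin ligase known to promote degradation of PD-L1, also rose (0.55, adjusted p = 0.0277), as did Stt3a, a catalytic subunit for N-glycosylation (0.98, 0.0204), and both were named after their values were seen. With library totals alone 2 genes of the list were higher and 2 lower. Hip1r, which directs PD-L1 to lysosomes, stood at 12.1, 19.2 and 16.04 CPM in Qtracker positive replicates 1, 2 and 3, against 333, 181 and 182 CPM in Qtracker negative replicates 1, 2 and 3. Without overlap of the groups, Hip1r fell by 3.83 ± 0.41 (adjusted p = 0.0126). Its highest library was Qtracker negative replicate 1, as for the summed B cell markers. The part of B cells in the level of Hip1r was not tested. Cmtm6, a relative of Cmtm4 with the same role, was named after its values were seen and was not called (-0.20 ± 0.14, adjusted p = 0.315).

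Of 15 genes of CD40 signalling, 1 rose and 4 fell (median -0.59), and without the replicate block 9 fell. Traf1, an adaptor of TNF family receptors, fell by 2.70 ± 0.40 (adjusted p = 0.0201, edgeR). Tnfaip3, which encodes the feedback inhibitor A20, rose by 0.55 ± 0.099 (adjusted p = 0.0284), although its groups overlapped, since replicate 1 was highest in each. The Tnfaip3 call was lost without the replicate block (0.191) and with library totals alone (0.294).

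Of 14 tested partners of SIRP alpha and CD47 or genes of related signals, 2 rose and 2 fell (median 0.70). Those that fell were Cd24a, a signal against engulfment (-2.11 ± 0.20, adjusted p = 0.011, edgeR), and Siglecg, its receptor in the mouse (-3.62 ± 0.49, 0.0176). Siglecg stood at 18.5, 22.3 and 19.7 CPM in Qtracker positive replicates 1, 2 and 3, against 516, 173 and 174 CPM in Qtracker negative replicates 1, 2 and 3, and is also a gene of B cells. Those that rose, named after their values were seen, were the engulfment receptor Lrp1 (3.43) and Calr, which encodes calreticulin, a signal that promotes engulfment (1.08).

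Of 7 tested partners of TIM-3 and VISTA, 1 rose and 4 fell (median -0.57). Lgals9, which encodes galectin 9, a ligand of TIM-3, was the gene that rose (1.09 ± 0.25, adjusted p = 0.0437, edgeR), and was named after its values were seen. That call was lost with library totals alone, and with no filter on low counts 2 genes of the list were lower. Ceacam1, a further ligand of TIM-3, stood at 25.4, 28.9 and 27.6 CPM in Qtracker positive replicates 1, 2 and 3, against 84.9, 387 and 385 CPM in Qtracker negative replicates 1, 2 and 3. All positive libraries lay below all negative libraries, and Ceacam1 fell by 3.12 ± 0.56 (adjusted p = 0.0276). Its level in Qtracker negative replicate 1 was the lowest of that group, as for the summed neutrophil markers. The part of neutrophils in the level of Ceacam1 was not tested. Lck, a kinase of lymphocytes, fell by 2.86 ± 0.43 (adjusted p = 0.0204).

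Of 14 inhibitory receptors of myeloid cells, 2 rose and 12 did not pass. The median was 0.77, with 2.42, 0.08 and 0.04 in pairs 1, 2 and 3. The Fc receptor Fcgr2b rose by 1.73 ± 0.18 (adjusted p = 0.0122, edgeR) and Cd300a by 2.50 ± 0.57 (0.0421, and 0.0596 without the replicate block). Of 11 antigen presentation genes, 1 rose and 1 fell, with a median of -0.51 that was -0.58, 0.44 and 0.36 in pairs 1, 2 and 3. The class I light chain B2m rose by 1.165 ± 0.21 (adjusted p = 0.0278), a call that was lost with library totals alone (0.0607), and the peptide transporter gene Tap2 fell by 0.63 ± 0.11 (0.0285).

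Over the distinct genes of these 9 lists, 16 rose and 26 fell, where 18.5% of all 14605 tested genes rose and 16.3% fell. Of the list genes that fell, 11 were receptors on T cells. Without replicate 2 edgeR called 0 of the list genes higher and 1 lower, and without replicate 3 it called 0 in either direction. In both settings 17 list genes were higher and 27 lower at an unadjusted p under 0.05.

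**Figure D5:**
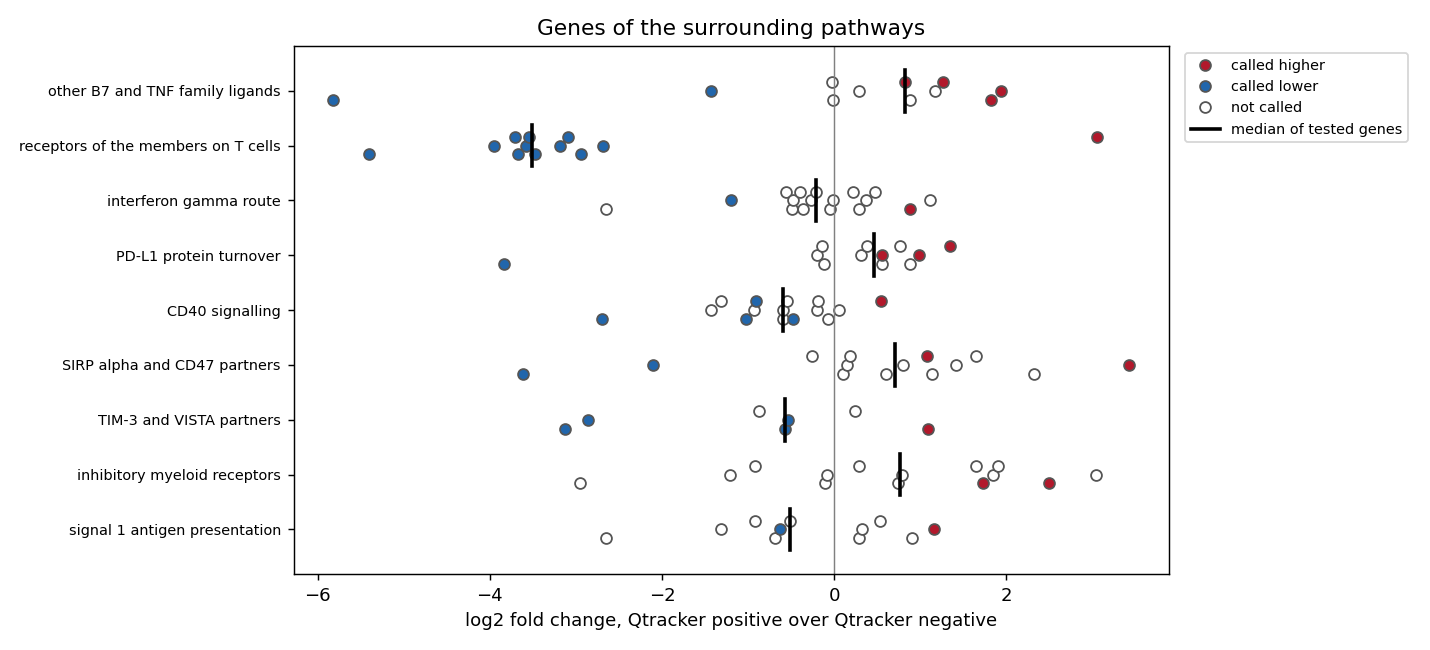
Log2 fold change, Qtracker positive over Qtracker negative, of the tested genes of 9 lists around these pathways, with genes called higher, called lower and not called marked apart and each list's median shown. The receptors on T cells have a median of -3.51, with Cd28 on the other side of 0 at 3.06.

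The genes most like Cd274 were those with the smallest root mean square difference of log2 CPM from it, each gene centred on its mean, over the 6 libraries. Among 8576 genes compared, the nearest was Mif, a cytokine gene, at 0.12. It was followed by Mfge8, which encodes a bridging protein for apoptotic cells (0.123), the growth factor gene Pdgfb (0.165), Pvr (0.206) and the transcription factor gene Egr2 (0.217). Mfge8 stood at 55.5, 22.2 and 23.35 CPM in Qtracker positive replicates 1, 2 and 3, against 12.5, 5.195 and 5.87 CPM in Qtracker negative replicates 1, 2 and 3. As for Cd274, replicate 1 was the highest library of each group and the groups did not overlap.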

How the data were processed

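RNA-seq libraries of 6 samples of sorted mouse spleen cells were compared, 3 Qtracker positive and 3 Qtracker negative. FastQC, Salmon and mm10 are named in the submitters' processing notes, with no version. The authors deposited a table of estimated counts (21847 genes, whole numbers), and these expected counts were used as deposited. Their deposited normalized table holds a signal whose ratio to the raw count varies between genes and between libraries, and its formula is not stated. It served only as an alternative, as log2(value + 1). No source used here names the annotation release; 5210 missing symbols, the coordinates and the exon lengths were taken from GENCODE M21.

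Low genes were removed with filterByExpr (count of 10, total of 15). TMM scaling and edgeR's quasi-likelihood test (version 4.0.16, R 4.3.3) followed, with the replicate number as a block. A gene was called where its Benjamini-Hochberg adjusted p, over 14605 genes, was under 0.05. Each standard error is the log2 fold change over the root of its F statistic, and log2 CPM used a prior count of 2. The pairing comes from the series' design text. Across genes, the residuals of libraries that share a number had correlations of 0.2, 0.077 and 0.16, which by itself would not show pairing. The fit was tested on simulated data. Alternatives were DESeq2 1.42.0, limma 3.58.1, other scaling and filters, a fit with no block, fits that each drop 1 replicate, and a sum of replicates 2 and 3. Plots were made in matplotlib 3.10.9.

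The members and lists were chosen with earlier results of these data known. The genes named by rule were the 10 members, those with the 2 lowest p-values in each list, Itgam, Adgre1, Flt3 and Ly6g, and the 5 genes most like Cd274 with a mean log2 CPM of at least 3. Another gene under this rule is not reported here. Sequences before gene starts are those of RefSeq (GRCm38.p6).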

Additional observations from a re-analysis of the deposited data

How the results depend on the processing

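Median-of-ratios size factors, the filter at 50 counts in 3 libraries and no filter changed no call among the 10 genes, although Cd80 turned to 0.012 with no filter. With library totals alone 1572 genes were higher, 2 of the 10 genes lower and 9 list genes higher. Cd86 was then at 0.18, Cd40 turned to -0.23 and Cd47 passed at -1.21, and 32.2% of calls were higher, against 53.2% with TMM. With upper quartile factors Cd86 was at 0.39 and Cd40 turned to -0.023. By DESeq2, which called 48.5% of tested genes, 3665 genes were lower, 3 of the 10 genes lower and 30 list genes higher. Icosl (-1.44), Sirpa (2.14) and Cd47 (-0.8955) passed by DESeq2. Sirpa also passed by limma-voom (2.32), which called 40.1% of tested genes. It passed with the authors' normalized counts (2.10), where 34.4% were called and Cd86 did not pass (0.38). Without the replicate block 2 of the 10 genes were lower, and 40.9% of tested genes were called, against 34.9% with it. Icosl (-1.41) and Sirpa (1.925) passed without the block and Cd40 turned to -0.066, and no other call among the 10 changed.

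Leaving out 1 replicate moved the counts to 0 to 5538 genes higher and 0 to 5352 lower, 0 to 6 of the 10 genes higher and 0 to 4 lower, and 0 to 45 list genes higher and 0 to 51 lower. Log2 fold changes then ranged from 2.16 to 2.31 for Cd274, -2.01 to -1.87 for Pdcd1lg2, -0.30 to 0.39 for Cd80, 0.51 to 0.57 for Cd86, -0.12 to 0.48 for Cd40, -1.715 to -0.87 for Icosl, -0.16 to 1.00 for Vsir, 2.88 to 3.37 for Havcr2, 1.49 to 2.575 for Sirpa and -1.215 to -0.62 for Cd47. Those of Itgam ranged from -0.28 to 1.56 and the log2 ratio of Vsir to Itgam from -0.589 to 0.1175, with both directions turned without replicate 1. With replicates 2 and 3 summed edgeR called 0 genes, with 4488 at an unadjusted p under 0.05. Cd274 was then at 2.29, Pdcd1lg2 at -1.99, Cd86 at 0.56, Havcr2 at 3.38 and Cd40 at -0.043. These fits have fewer residual degrees of freedom. Without replicate 1 72.9% of tested genes were called, against 2.1% without replicate 2. The cause of the changes between settings was not tested. What limits the precision of each gene was not tested.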
